A study of Homo sapiens with 6 samples.

Results

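The 10 genes described here belong to the YAP and TEAD axis of the Hippo pathway. They were chosen by name, with earlier results of these data known: YAP1, TEAD1, TEAD4, CCN1, CCN2, ANKRD1, AMOTL1, AMOTL2, LATS2 and AJUBA. All 10 were measured, among 19676 genes that had a probe set naming that gene alone. Each gene is given by its brightest probe set on average, and its other probe sets served as a check.

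RNA came from A375, a human melanoma line that carries a BRAF mutation, and was hybridised to 6 Affymetrix arrays. Each of the 6 conditions had 1 array. At 6 h the cells had received the solvent DMSO, 10 µM vemurafenib, 100 nM AT9283, or 10 µM vemurafenib with 100 nM AT9283, called the combination here. At 16 h they had received DMSO or 10 µM vemurafenib, and AT9283 was measured at 6 h alone. All conditions share the 1 cell line and its mutated BRAF gene, so the arrays hold no cells without that mutation. Vemurafenib blocks the mutant BRAF kinase and with it the ERK pathway. AT9283 is a multikinase inhibitor whose targets include the Aurora kinases and JAK2. The comparisons ask how each drug, the combination and time changed expression.

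The Hippo pathway is a kinase cascade that holds back the coactivator YAP. Active LATS kinases phosphorylate YAP, which then stays in the cytoplasm, whereas unphosphorylated YAP enters the nucleus and switches on genes through the DNA-binding TEAD factors. CCN1, CCN2 and ANKRD1 are the targets most often used to read YAP activity, and AMOTL1, AMOTL2, LATS2 and AJUBA act on the pathway itself. Because YAP and TEAD are controlled largely through phosphorylation and location, an mRNA level is no measure of their activity. In melanoma the axis is known for its part in cell state and in tolerance of BRAF inhibitors.

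TEAD factors bind the letters GGAATG, and AP-1 factors, which often share enhancers with TEAD, bind TGANTCA. Promoter windows from 250 bases before to 50 bases after the start site were taken from RefSeq on GRCh38.p14 and searched on both strands. The table held 9 windows for 7 of the 10 genes, with no entry for CCN1, TEAD1 or TEAD4. The CCN2 window held 3 GGAATG matches and the ANKRD1 window 2. Of 35116 windows of this length in the table, 0.128% held at least 3 such matches, 1.37% at least 2 and 14.0% at least 1. The 250 bases before the start of these genes are shown because both fell with vemurafenib in the values that follow; capitals mark GGAATG. The CCN2 stretch is chr6:131951373-131951622 and the ANKRD1 stretch chr10:90921088-90921337, both on the minus strand.
CCN2: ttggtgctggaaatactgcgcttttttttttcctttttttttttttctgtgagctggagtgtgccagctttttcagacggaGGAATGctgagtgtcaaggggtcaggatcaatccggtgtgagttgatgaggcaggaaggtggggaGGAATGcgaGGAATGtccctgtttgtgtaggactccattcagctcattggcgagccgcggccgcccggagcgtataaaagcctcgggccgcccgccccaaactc
ANKRD1: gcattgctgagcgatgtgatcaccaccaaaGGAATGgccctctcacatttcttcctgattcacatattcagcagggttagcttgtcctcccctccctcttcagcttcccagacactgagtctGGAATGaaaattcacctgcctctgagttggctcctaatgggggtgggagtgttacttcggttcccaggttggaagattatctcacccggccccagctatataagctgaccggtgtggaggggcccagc

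In CCN2 the matches lay at -169 to -164, -104 to -99 and -95 to -90 from the start, the latter 2 separated by the letters cga. In ANKRD1 they lay at -220 to -215 and -128 to -123. ANKRD1 also held the only TGANTCA match among the 9 windows, at -195 to -189, against 7.71% of all windows with at least 1. A match describes the letters of a window and is not evidence of binding.

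The same letters also occur in windows of genes that did not fall by the size rule given below. Of these, AMOTL2 came close to that rule with vemurafenib at 16 h (log2 difference -0.94). Whether the matches relate to the changes in expression was not tested. AMOTL2, LATS2, YAP1 and AJUBA each had a single GGAATG match, shown with 30 bases around it; in AMOTL2 it lies on the opposite strand and reads CATTCC. The AMOTL2 stretch is chr3:134374499-134374528, LATS2 chr13:21061560-21061589 and AJUBA chr14:22976884-22976913, all on the minus strand, and YAP1 is chr11:102110273-102110302 on the plus strand. The matches of AMOTL2 and AJUBA lie in the second of 2 windows given for each gene. That of LATS2 lies after the start site.
AMOTL2: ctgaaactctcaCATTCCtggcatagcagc
LATS2: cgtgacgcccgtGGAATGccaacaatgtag
YAP1: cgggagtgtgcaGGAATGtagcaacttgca
AJUBA: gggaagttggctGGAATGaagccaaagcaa

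AMOTL1 had no match in its single window at chr11:94768106-94768405 on the plus strand. That window lies inside the gene, which begins at 94706460, so the stretch around that first base was not searched.

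Array medians ranged from 19.79 to 21.29 in intensity, and 44.7% to 46.1% of genes reached an intensity of 64, which is 6 on the log2 scale. The melanoma label was checked against marker genes. SOX10 (319.4 to 563.5) and MITF (395.8 to 807.5) were above 64 on all 6 arrays, S100B reached 70.8, and PMEL, MLANA, TYR and S100A1 were below 64 on all 6, so the pigment genes do not bear out the label while the lineage factors do. The endothelial (3 of 3 measured) and leukocyte (3 of 3 measured) markers, EPCAM and CDH1 were also below 64 on all arrays. KRT8, KRT18 and COL1A1 were above it on all arrays, and the other 3 fibroblast markers below it. KRT18 was lower with vemurafenib (limma effect -0.66, SE 0.08, adjusted p = 0.0358), and its part in the results was not tested.

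Without replicates, differences between arrays were described by size. A gene was said to rise or fall when the log2 difference was at least 1, which is 2-fold, and the higher of the compared arrays was at log2 6 or more. This is not a test. Array values also cannot separate fewer cells that express a gene from less RNA per cell.

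CCN2 fell with vemurafenib at both times, and the decrease was larger at 16 h. CCN2 encodes connective tissue growth factor, a secreted matrix protein. Its intensity at 6 h was 693.9 with DMSO, 202.9 with vemurafenib, 522.4 with AT9283 and 90.6 with the combination, and at 16 h it was 498.1 with DMSO and 43.8 with vemurafenib. The 3 arrays with vemurafenib were the 3 lowest, and the AT9283 array lay between both DMSO arrays. Vemurafenib minus DMSO was -1.77 on the log2 scale at 6 h, 29.2% of the control. At 16 h it was -3.51, with the vemurafenib array under 64, which makes it at least 7.78-fold lower against an intensity of 64. In the presence of AT9283 vemurafenib gave -2.53.

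ANKRD1 fell the furthest at 6 h. It encodes a cardiac and muscle ankyrin repeat protein that acts in the nucleus and at the sarcomere. The intensities at 6 h were 324.6 with DMSO, 38.3 with vemurafenib, 291.5 with AT9283 and 21.4 with the combination, and at 16 h 147.6 with DMSO and 18.7 with vemurafenib. All 3 arrays with vemurafenib were under 64 and all 3 without it were above 64. The log2 difference was -3.08 at 6 h, -2.98 at 16 h and -3.77 for the combination minus AT9283. Against an intensity of 64 these are at least 5.07-fold, 2.31-fold and 4.55-fold lower. Of 9095 genes at 6 h, CCN2 had the 59th lowest difference. ANKRD1 gets no exact rank, since its vemurafenib array was under 64.

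CCN1 differed from both in its timing. It encodes CYR61, a secreted matrix protein like CCN2. Intensities at 6 h were 1261.6 with DMSO, 910.9 with vemurafenib, 1034.4 with AT9283 and 495.4 with the combination, and at 16 h 1418.7 with DMSO and 204.8 with vemurafenib. At 6 h the vemurafenib and AT9283 arrays were close to each other, and the combination was the lowest of the 6 h arrays. Vemurafenib minus DMSO was -0.47 at 6 h, which did not reach the size rule, and -2.79 at 16 h, which did and is 6.93-fold lower. With AT9283 present, vemurafenib lowered CCN1 by 2.09-fold at 6 h (log2 difference -1.06). A second CCN1 probe set gave -0.62 at 6 h and -2.73 at 16 h.

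**Figure D1:**
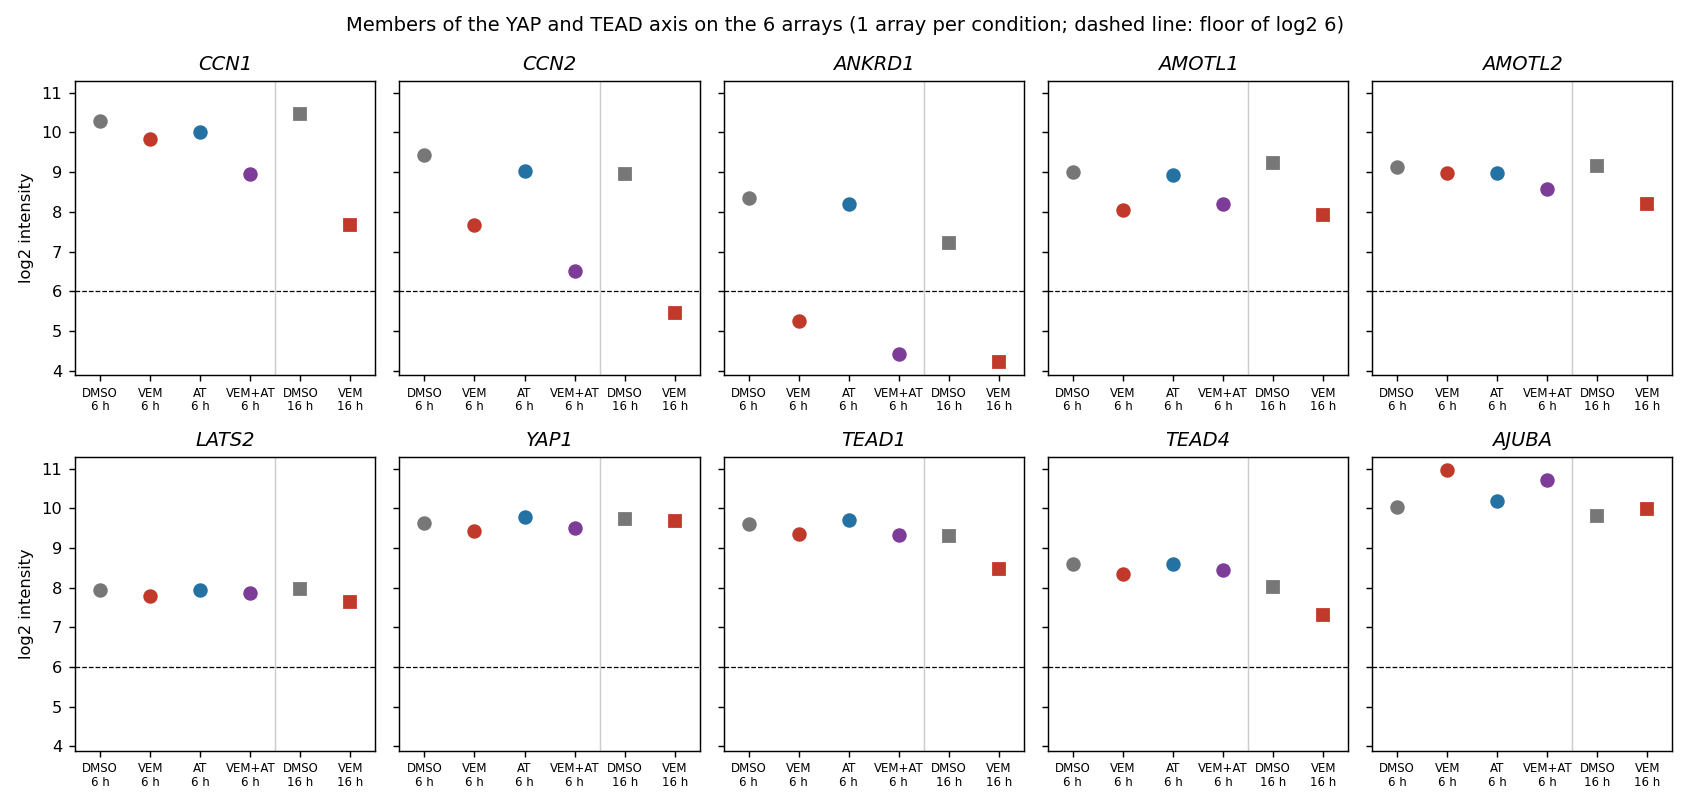
Log2 intensity (y axis) of each of the 10 genes on the 6 arrays, 1 point per array, with 6 h as circles, 16 h as squares and a dashed line at log2 6. ANKRD1 lies under the line on all 3 arrays with vemurafenib, CCN2 on 1, and YAP1 and LATS2 span 0.34 and 0.33 over the arrays.

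Among genes that act on the pathway, AMOTL1 fell at 16 h and lay just short of the size rule at 6 h. Angiomotin-like proteins bind YAP and hold it outside the nucleus. AMOTL1 intensities at 6 h were 514.9 with DMSO, 266.6 with vemurafenib, 489.6 with AT9283 and 292.0 with the combination, and at 16 h 599.8 with DMSO and 243.0 with vemurafenib. The arrays with and without vemurafenib did not overlap, and the AT9283 array lay near the DMSO array of 6 h. Vemurafenib minus DMSO was -0.95 at 6 h and -1.30 at 16 h. All 4 AMOTL1 probe sets were lower at both times, with differences of -0.95 to -0.57 at 6 h and -1.82 to -1.06 at 16 h.

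AMOTL2, the close relative of AMOTL1 and a YAP target itself, had intensities at 6 h of 560.7 with DMSO, 508.4 with vemurafenib, 509.7 with AT9283 and 379.0 with the combination. At 16 h they were 566.2 with DMSO and 294.2 with vemurafenib. The first 3 arrays were close together, and the lowest was the vemurafenib array of 16 h. The log2 difference was -0.14 at 6 h and -0.94 at 16 h, neither of which reached the size rule.

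LATS2 and YAP1 varied least by the probe sets used. LATS2, a kinase that inhibits YAP and is also a YAP target, ranged from 198.4 with vemurafenib at 16 h to 248.6 with DMSO at 16 h. Its difference was -0.14 at 6 h and -0.33 at 16 h. A second LATS2 probe set above 64 gave 0.02 at 6 h and -0.54 at 16 h. Its log2 values ran from 6.34 to 7.14, so the small range of LATS2 depends on the probe set. YAP1, the coactivator, ranged from 689.7 with vemurafenib at 6 h to 871.7 with AT9283, with differences of -0.20 at 6 h and -0.07 at 16 h. Its 3 probe sets gave -0.40 to -0.20 at 6 h and -0.30 to -0.04 at 16 h. By the probe set used, YAP1 mRNA held within 1.26-fold over all 6 arrays, at 9.43 to 9.77 on the log2 scale. Its other probe sets spanned more, from 8.30 to 8.84 and from 8.37 to 8.86. Vemurafenib took CCN2 at least 7.78-fold lower at 16 h and ANKRD1 at least 5.07-fold lower at 6 h.

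TEAD1 and TEAD4 were lowest with vemurafenib at 16 h, with differences short of the size rule by the probe sets used. TEAD1 intensities at 6 h were 770.8 with DMSO, 647.8 with vemurafenib, 836.4 with AT9283 and 637.8 with the combination, and at 16 h 628.0 with DMSO and 357.2 with vemurafenib. The DMSO array of 16 h lay just below both vemurafenib arrays of 6 h, so the arrays with and without the drug overlap. The vemurafenib difference was -0.25 at 6 h and -0.81 at 16 h. TEAD4 intensities at 6 h were 389.0 with DMSO, 326.0 with vemurafenib, 387.6 with AT9283 and 347.4 with the combination, and at 16 h 257.6 with DMSO and 159.9 with vemurafenib. Both 16 h arrays were below all 4 arrays of 6 h. Its differences were -0.25 at 6 h and -0.69 at 16 h, and a second TEAD4 probe set gave -1.27 at 16 h, past the size used here.

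AJUBA was the gene that was higher with vemurafenib. It encodes a LIM domain protein that binds LATS kinases and limits their action on YAP. Intensities at 6 h were 1045.9 with DMSO, 1994.0 with vemurafenib, 1152.0 with AT9283 and 1691.3 with the combination, and at 16 h 889.4 with DMSO and 1011.8 with vemurafenib. The 2 vemurafenib arrays of 6 h stood above the other 4. The difference was 0.93 at 6 h and 0.19 at 16 h, and its other 2 aligned probe sets gave 1.06 and 1.30 at 6 h. At 6 h AJUBA therefore lay on either side of the size rule depending on the probe set.

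**Figure D2:**
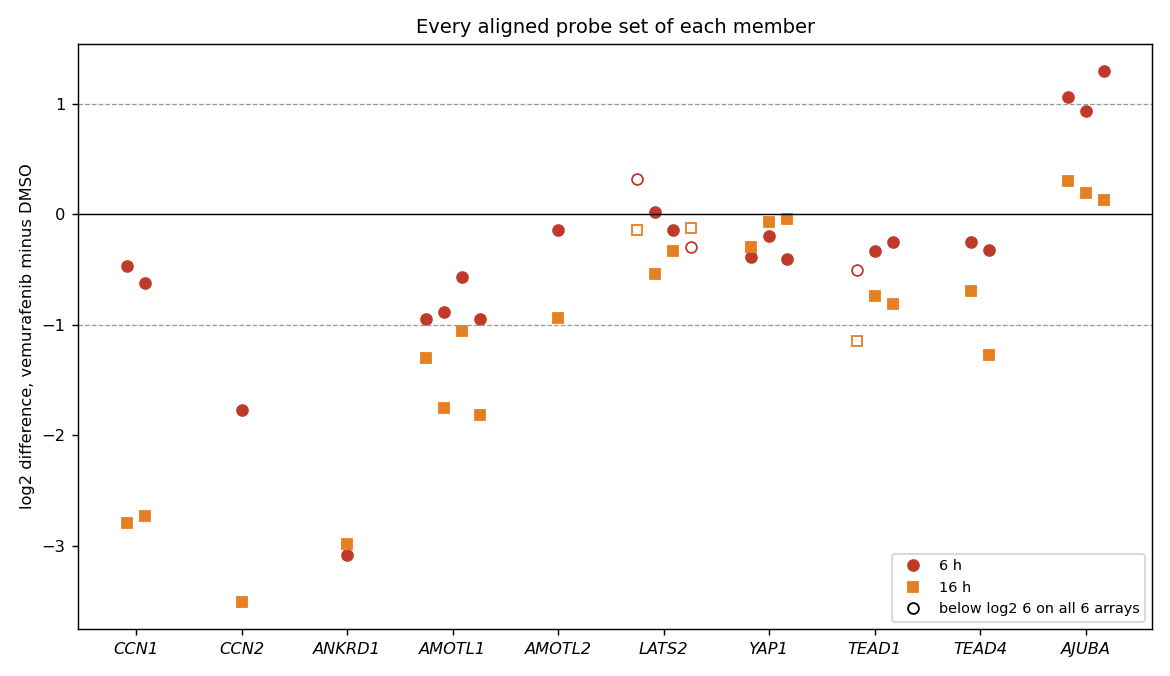
Log2 difference between vemurafenib and DMSO (y axis) for each aligned probe set of the 10 genes, with 6 h as circles, 16 h as squares and open symbols for probe sets below log2 6 on all 6 arrays. The 3 AJUBA probe sets lie between 0.93 and 1.30 at 6 h and between 0.13 and 0.30 at 16 h, and the 4 AMOTL1 probe sets lie below 0 at both times.

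Counted over the 10 genes, vemurafenib at 6 h took 2 lower (CCN2 and ANKRD1) and 0 higher by the size rule, where 2.14% of 9095 genes were lower and 1.03% higher. At 16 h it took 4 lower (CCN1, CCN2, ANKRD1 and AMOTL1) and 0 higher, where 5.79% of 9469 genes were lower and 5.19% higher. The combination minus AT9283 took 3 lower (CCN1, CCN2 and ANKRD1), where 1.97% of 9073 genes were lower and 0.452% higher. The 10 genes were chosen with earlier results of these data known, so their counts and medians are not independent of that choice. Their median difference was -0.25 at 6 h, -0.88 at 16 h and -0.41 with AT9283 present. Over all genes tested it was 0.02, -0.00 and 0.03.

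These 3 vemurafenib differences come from 3 pairs of arrays with no array in common, so the drug's effect was also fitted with limma over all 6 arrays, with terms for vemurafenib, AT9283 and time. Its error holds the change of the effect between pairs, with 2 residual degrees of freedom, and is not the spread between replicate cultures. Of 9707 genes fitted, 3.33% were lower and 1.44% higher at an adjusted p (Benjamini-Hochberg) under 0.05. The fit called 3 of the 10 genes, all lower. ANKRD1 had an effect of -3.28 on the log2 scale (SE 0.19, limma adjusted p = 0.0076), CCN2 of -2.60 (SE 0.34, limma adjusted p = 0.0371) and AMOTL1 of -1.0 (SE 0.13, limma adjusted p = 0.0364). Each was lower in 3 of 3 pairs. The calls of CCN2 and AMOTL1 were lost in a fit of the 4 DMSO and vemurafenib arrays alone (limma adjusted p = 0.089 and 0.0747), and that of ANKRD1 was kept (0.0111). The AMOTL1 call was also lost when its probe sets were averaged (limma adjusted p = 0.0523).

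CCN1 was lower in 3 of 3 pairs too, with a limma effect of -1.44, but its pairs ranged from -2.79 to -0.47 and it was not called (SE 0.47, adjusted p = 0.137). The remaining 5 lower genes were not called either: TEAD1 (effect -0.49, SE 0.13), AMOTL2 (-0.50, SE 0.17), TEAD4 (-0.37, SE 0.13), LATS2 (-0.18, SE 0.08) and YAP1 (-0.18, SE 0.08), with limma adjusted p from 0.109 to 0.207. AJUBA was higher in 3 of 3 pairs (effect 0.56, SE 0.16, limma adjusted p = 0.114). A limma fit of the 4 arrays of 6 h alone called 2758 genes, against 463 over all 6 arrays. It also called CCN1, TEAD1, AMOTL2, TEAD4 and YAP1 as lower and AJUBA as higher (limma adjusted p from 0.00491 to 0.0485). At an unadjusted p under 0.05, 8 of the 10 genes passed, where 31.3% of all genes did.

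The genes differed in timing, although with 1 array per condition the change between times was not tested. The vemurafenib difference at 16 h less that at 6 h was -2.32 for CCN1, -1.73 for CCN2 and -0.80 for AMOTL2 on the log2 scale. For ANKRD1 it was 0.11. The CCN2 and ANKRD1 values rest on vemurafenib arrays under 64 and have no exact size. For AJUBA the 16 h difference less that of 6 h was -0.74, as its difference stayed above 0 and went from 0.93 to 0.19. Part of such a change can lie in the controls. ANKRD1 fell between the DMSO arrays of 6 h and 16 h, a log2 difference of -1.14, the only one of the 10 genes to pass the size rule there, where 0.0883% of 9055 genes were lower and 0.188% higher. TEAD4 differed by -0.59 and CCN2 by -0.48 in the same comparison. For CCN1 the DMSO difference was 0.17 by the probe set used and -0.62 by the other, so its direction without drug depends on the probe set.

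AT9283 alone took none of the 10 genes past the size rule. The difference was -0.41 for CCN2, -0.29 for CCN1, -0.16 for ANKRD1 and between -0.14 and 0.14 for the other 7 genes. Few genes of any kind changed with AT9283, with 0.0% of 8938 lower and 0.0224% higher. Even so, CCN2 had the 23rd lowest difference of these genes and CCN1 the 79th.

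Added to vemurafenib, AT9283 took CCN2 down further, from 202.9 to 90.6 (log2 difference -1.16). CCN2 was the 1 gene of 9 tested that fell, where 0.322% of 8999 genes were lower and 0.0% higher. CCN1 differed by -0.88 and AMOTL2 by -0.42, short of the size rule. ANKRD1 went from 38.3 to 21.4, but both arrays were under 64, so no difference was counted. The other 6 genes lay between -0.24 (AJUBA) and 0.13 (AMOTL1).

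Against DMSO, the combination took 3 of the 10 genes lower, CCN1 (-1.35), CCN2 (-2.94) and ANKRD1 (-3.92), where 1.93% of 9076 genes were lower and 0.639% higher. The differences of the single drugs, added together, come to -0.76 for CCN1, -2.18 for CCN2 and -3.24 for ANKRD1. The CCN1 and CCN2 values of the combination were below their sums, but these comparisons share the DMSO array and the excess was not tested. For ANKRD1 the vemurafenib and combination arrays were both under 64, so its value and its sum have no order. AJUBA was 0.69 in the combination against a sum of 1.07.

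The fit over 6 arrays called 0 of 9707 genes for AT9283 (limma, Benjamini-Hochberg), or 0.0%, and 225 genes had an unadjusted p under 0.05, none of the 10 among them. The effect was -0.79 (SE 0.42) for CCN2, -0.58 (SE 0.58) for CCN1, -0.50 (SE 0.23) for ANKRD1 and -0.28 (SE 0.21) for AMOTL2, each lower in 2 of 2 pairs, with a limma adjusted p of 0.999. The ANKRD1 value includes the pair under 64.

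**Figure D3:**
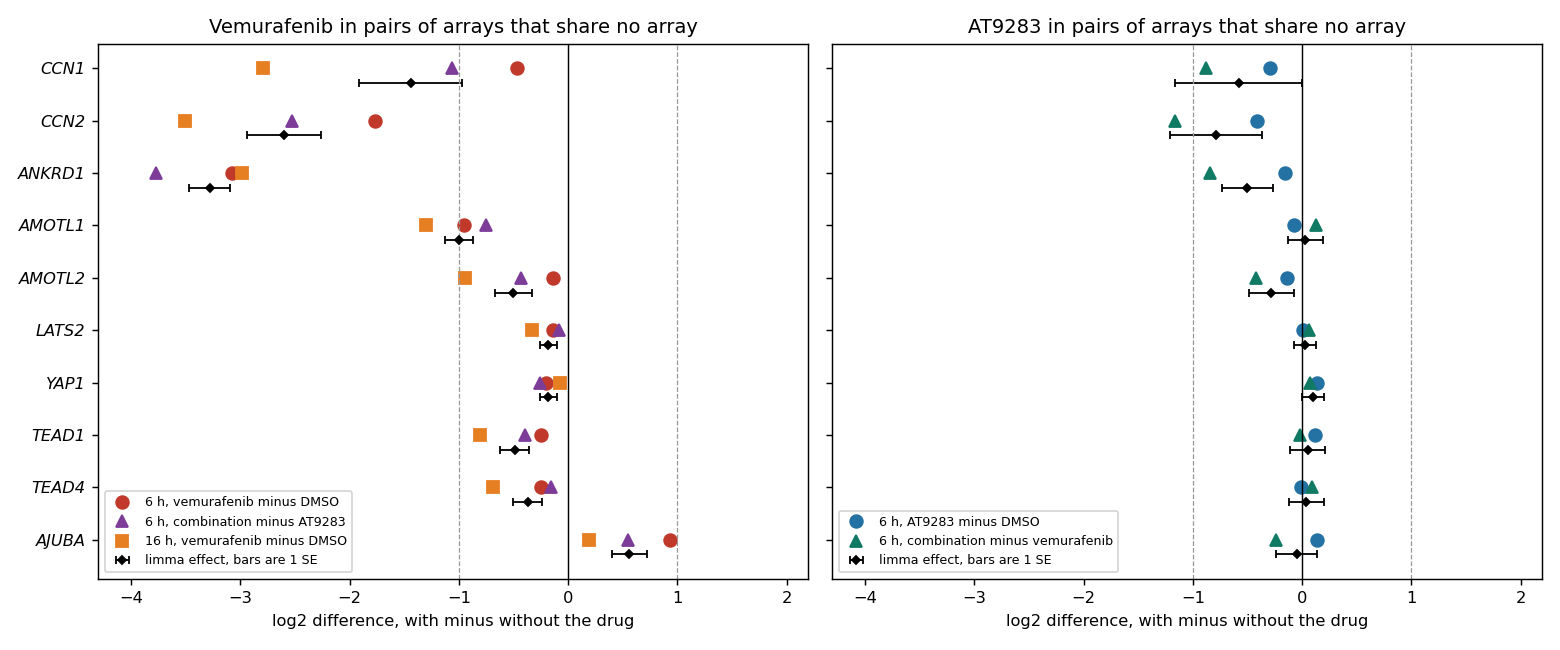
Log2 difference with minus without vemurafenib (left) or AT9283 (right) for each gene, 1 symbol per pair of arrays, with the limma effect as a diamond and bars of 1 SE; dashed lines mark -1 and 1. Under vemurafenib 9 genes lie below 0 in all 3 pairs and AJUBA above 0, and under AT9283 only CCN2 with vemurafenib passes -1. The share of all genes with the same sign in all 3 pairs was not counted. The genes shown were chosen with earlier results known, so their shared sign is not independent of that choice.

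The rest of the pathway was described from lists of genes, which were also chosen with earlier results known. Their counts are therefore not independent of these data. Of 25 kinases and regulators of the Hippo cascade (among them the MST kinases STK3 and STK4, LATS1 and the tumour suppressor NF2), 24 were measured and 19 tested. None passed the size rule with vemurafenib at 6 h or 16 h, and the median was -0.08 and -0.21. Over all genes 2.14% were lower and 1.03% higher at 6 h, and 5.79% and 5.19% at 16 h, with medians of 0.02 and -0.0. With 19 genes and these shares, the absence of genes past the rule is not read as a result about the list. The limma fit called 1 of 19, SAV1, the scaffold of the MST kinases, which was lower (effect -0.60, SE 0.07, adjusted p = 0.0347). Over all genes fitted 3.33% were called lower, so 1 of 19 lies near the background. SAV1 was chosen for mention after its values were seen.

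Of the other TEAD factors and cofactors (7 measured, 3 tested at each time), WWTR1 fell at 6 h. WWTR1 encodes TAZ, the paralog of YAP. It had log2 intensities at 6 h of 11.59 with DMSO, 10.36 with vemurafenib, 11.57 with AT9283 and 10.45 with the combination, and at 16 h 11.61 with DMSO and 10.87 with vemurafenib. The 3 arrays with vemurafenib were below the 3 without it. Vemurafenib minus DMSO was -1.23 at 6 h and -0.75 at 16 h, and the combination minus AT9283 was -1.11. The limma effect was -1.03 (SE 0.11, adjusted p = 0.0249), while that of YAP1 was -0.18. Whether WWTR1 and YAP1 differ in their change was not tested. TEAD2, named after its values were seen, was higher with vemurafenib, by 0.46 at 6 h and 0.77 at 16 h. Neither passed the size rule, and its DMSO arrays were under log2 6 (5.86 and 5.97). Its limma effect was 0.53 (SE 0.12, adjusted p = 0.0839).

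A list of YAP targets in wide use as a signature held 22 genes, of which 21 were measured and 5 are among the 10 genes (CCN1, CCN2, ANKRD1, AMOTL2 and LATS2). With vemurafenib, 4 of 20 tested fell at 6 h (CCN2, ANKRD1, F3 and FJX1) and 0 rose, where 2.14% of all genes were lower and 1.03% higher. At 16 h 7 of 20 fell, adding CCN1, IGFBP3 and NT5E, and 0 rose, where 5.79% of all genes were lower and 5.19% higher. The median was -0.32 at 6 h and -0.63 at 16 h, against 0.02 and -0.00 over all genes. F3, the tissue factor that starts coagulation, differed by -1.98 at 6 h and -2.01 at 16 h (limma effect -2.14, SE 0.16, adjusted p = 0.0121). Its arrays with vemurafenib were at log2 4.28 to 4.61, under 6, so these F3 values have no exact size. FJX1 differed by -1.25 and -2.49, with a limma adjusted p of 0.0636.

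NT5E, the ecto-nucleotidase CD73, and IGFBP3, a binding protein of insulin-like growth factors, resembled CCN1 in timing. NT5E was -0.47 at 6 h and -3.55 at 16 h, and IGFBP3 was 0.15 at 6 h and -2.97 at 16 h. With vemurafenib at 16 h NT5E was at log2 5.71 and IGFBP3 at 5.1, under 6, so both 16 h values have no exact size. TGFB2, a cytokine of the TGF-beta family, did not pass with vemurafenib alone at 6 h (-0.37). At 16 h it was not tested, since both arrays were under log2 6 (5.83 and 5.96). By the rule it fell in the combination minus AT9283 (-1.21) and minus DMSO (-1.03). The combination array was at log2 5.42, under 6, so neither value has an exact size. The limma fit also called DOCK5 (effect -0.74, SE 0.08, adjusted p = 0.0243), named after its values were seen. AXL, a receptor kinase in the same list, was -0.11 at 6 h and -0.17 at 16 h. At each time most of the list did not pass the rule.

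SRF and its cofactor MRTF respond to actin and share several targets with YAP. Of 18 such genes 16 were measured. FHL2, a LIM domain cofactor, fell at 6 h (-1.13) and 16 h (-1.45), with a limma effect of -1.29 (SE 0.09, adjusted p = 0.0107). THBS1, the matrix protein thrombospondin, fell at 16 h (-1.08) and was -0.19 at 6 h. So 1 of 11 tested fell at 6 h and 2 of 12 at 16 h, and 0 rose, beside 2.14% lower and 1.03% higher among all genes at 6 h and 5.79% and 5.19% at 16 h.

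AP-1 factors moved in both directions, beside the same shares of all genes. Of 7 tested at 6 h, JUN (-1.04) and FOSL1 (-2.51) fell and ATF3 (2.13) rose. Of 6 tested at 16 h, FOSL1 fell (-3.70) and JUND (1.01) and ATF3 (1.33) rose. The FOSL1 array with vemurafenib at 16 h was at log2 5.6, under 6, so that value has no exact size. FOSL1, a FOS family member under ERK control, had a limma effect of -2.83 (SE 0.31, adjusted p = 0.0248), FOSL2 of -0.85 (SE 0.07, adjusted p = 0.0144) and ATF3, a stress-induced factor, of 1.52 (SE 0.22, adjusted p = 0.0431). When AT9283 was added to vemurafenib, JUN (-1.14) and ATF3 (-1.35) fell and none of the 7 tested rose, where 0.322% of all genes were lower. Of the other CCN genes, CCN3 was the 1 tested at 6 h, at -0.51, and it was 0.02 at 16 h.

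**Figure D4:**
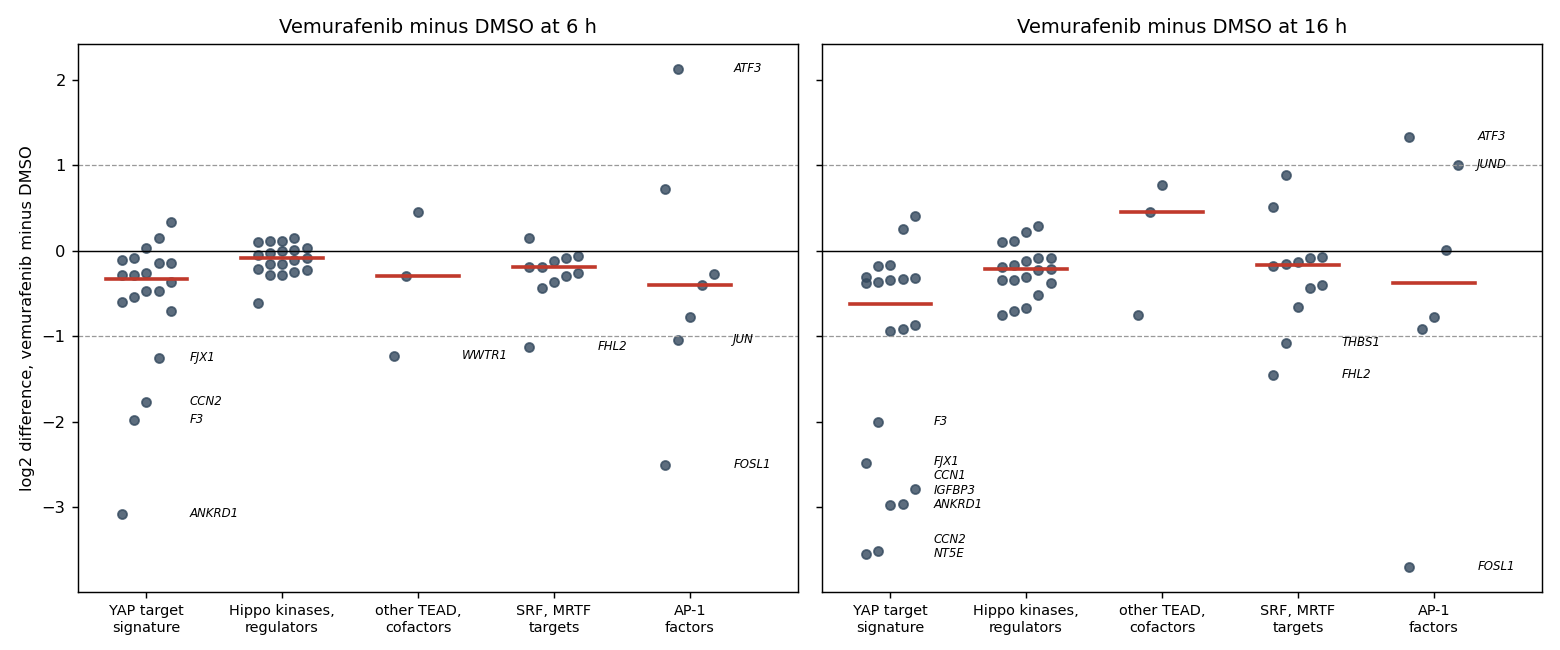
Log2 difference between vemurafenib and DMSO (y axis) at 6 h and 16 h for the tested genes of 5 lists, 1 point per gene, with a red line at each list's median; genes at or past 1 in size are named in the order of their values. The Hippo kinases and regulators lie within 1 of 0 at both times, and 4 of the YAP target genes lie below -1 at 6 h and 7 at 16 h.

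The genes with the most similar pattern were sought by Pearson r over the 6 arrays, among 1543 genes with a mean log2 intensity of at least 6 and a span of at least 1. The 6 values share their arrays and the drug groups, so r describes likeness here and carries no test. Closest to CCN2 were FST (0.997), encoding the activin antagonist follistatin, INHBA (0.997), an activin subunit, and TAF4B (0.985). FST had log2 intensities at 6 h of 10.71 with DMSO, 8.97 with vemurafenib, 10.02 with AT9283 and 7.56 with the combination, and at 16 h 10.06 with DMSO and 6.60 with vemurafenib. As for CCN2, its combination array was lower than its vemurafenib array at 6 h.

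Closest to ANKRD1 were SAMD4A (0.997), DUSP5 (0.993), an ERK phosphatase that ERK signalling induces, and DLX1 (0.992). Closest to AMOTL1 were ETV1 (0.998), an ETS factor downstream of ERK, MLPH (0.998) and STAMBPL1 (0.994). CCN1 was most like NMNAT2 (0.987), BICD1 (0.980) and INPP4B (0.979), all of which had their lowest array with vemurafenib at 16 h. TEAD1 was most like QSOX2, PYCR3 and BATF3 (each 0.996), and TEAD4 most like PVR (0.996), LLPH (0.996) and RRP1 (0.995). AJUBA was most like MTRFR (0.991), DOCK10 (0.980) and GNAI1 (0.967). LATS2, YAP1 and AMOTL2 spanned less than 1 over the arrays and were not matched.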

How the data were processed

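The deposited values were probe set intensities on a linear scale for 6 arrays, made with RMA per the submitters' processing notes. Neither its version nor a joint normalization of the arrays is stated in the sources used here. Log2 values were computed from the deposited intensities. Each array was placed in its condition from its label.

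Of 54675 probe sets, the platform annotation gave 41097 a single gene symbol, 1801 several and 11777 none; only the first were named, and 19734 of 19734 symbols checked equalled those of RefSeq. The probe set with the highest mean was used per gene. In several blocks of the table the 6 h values lay on other probe sets' lines (r of the DMSO arrays 0.455 there, 0.992 elsewhere), so 1118 probe sets and 62 control probe sets were left out, 1 AJUBA probe set among them. Both blocks of the selection rule (1102 probe sets) are included.

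Differences followed a size rule (log2 difference of at least 1, higher array at log2 6 or more). Limma 3.58.1 in R 4.3.3 (trended prior) was fitted to 9707 genes with at least 1 array at log2 6. Python 3.11.15 did the rest, and the steps were tested on simulated data. Named list genes were up to 5 per list past the size rule in a vemurafenib comparison, by size of limma effect; pattern matches were the 3 highest r per gene. The 10 genes and the lists were chosen with earlier results of these data known. Scaling, pseudocount, probe set choice, filter, control array and fit were varied.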

Additional observations from a re-analysis of the deposited data

Results flagged for a closer look

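For 4 of the 10 genes the AT9283 effect had opposite signs without and with vemurafenib by the probe set used. Each effect rests on 1 pair of arrays, so the difference was not tested. The share of all genes that change sign in this way was not counted. Some values lie near 0, with TEAD4 at -0.01 without vemurafenib and TEAD1 at -0.02 with it. A second TEAD4 probe set gave 0.05 without and 0.08 with vemurafenib. The other AMOTL1 probe sets gave -0.12 and 0.05, -0.15 and -0.21, and -0.06 and -0.04. The AT9283 effect with vemurafenib less that without was 0.20 for AMOTL1, -0.14 for TEAD1, 0.10 for TEAD4 and -0.38 for AJUBA on the log2 scale. For AJUBA the effect went from 0.14 alone to -0.24 with vemurafenib, and its 3 aligned probe sets lay between 0.14 and 0.23 alone and between -0.46 and -0.24 with vemurafenib. No group had enough arrays for a check of single outlying arrays.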

How the results depend on the processing

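With 1 array per condition, no replicate numbers pair arrays and no replicate could be left out; arrays of the same time were paired through a time block. Of 660 differences of single genes under alternatives, 656 stayed on their side of the size rule and 4 came to pass it. Reversal was followed only for differences past the rule, of which 0 reversed. Smaller differences could change sign. TEAD4 with vemurafenib at 6 h went from -0.25 to 0.04 with both DMSO arrays averaged as the control. With both DMSO arrays averaged as the control, 4 genes rather than 2 passed at 6 h, AMOTL1 at -1.06 and AJUBA at 1.05 being added; AJUBA reached 1.10 with probe sets averaged and AMOTL2 -1.08 at 16 h with arrays centred on their medians, which shifts all genes by -0.132 there. Of 148 limma effects, 139 did not change in whether they were called, and 3 lost a call. Another 6 gained one (CCN1, AMOTL2, YAP1, TEAD1, TEAD4 and AJUBA, with the arrays of 6 h). Of the called effects 0 reversed. Effects not called could change sign, as AMOTL1 with AT9283 did, from 0.03 to -0.06 with probe sets averaged. The genes called for vemurafenib numbered 463, against 297 with probe sets averaged, 113 with the 4 DMSO and vemurafenib arrays and time as a block, and 2758 with the 4 arrays of 6 h. Of the 10 genes 3 were called, against 1 with that block and 9 with the arrays of 6 h. The 9 come from the fit with 2758 calls, the most of those listed, and are not read as a result about the 10 genes. The fit with that block and the fit of 6 h have fewer arrays, and the cause of the averaged count was not tested. Placing the misaligned values in the other order, an alternative chosen after seeing the data, changed no call of the 10 genes. LATS2 had no averaged limma value because the average lay under the filter. Signal near background limits the values under 64, those of ANKRD1 and CCN2 with vemurafenib among them.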
